A study of Mus musculus with 47 samples.

Results

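The 583 CLK:BMAL1 binding sites examined here are the ChIP-seq peaks that the deposited peak list places at a transcription start site (TSS), 18.1% of the 3217 peaks in that list. They were taken by that class alone, and no MNase value was used to pick single peaks. The class itself was chosen with earlier results of these data known. BMAL1 and CLK (CLOCK) pair to form the activator of the circadian clock, which binds E-box sequences (CACGTG) and drives its own repressors along with output genes of liver metabolism. Active promoters in general hold a stretch of DNA with few nucleosomes, bordered on both sides by well-placed nucleosomes. Micrococcal nuclease (MNase) digests DNA that nucleosomes do not protect, and the coverage of the surviving fragments measures nucleosome signal.

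Livers came from C57BL/6 mice of 3 to 6 months under 12 h light and 12 h dark, either wild type or Bmal1-/-, which lack the BMAL1 subunit. Mice were taken at 6 zeitgeber times (ZT, h after lights on), ZT02, ZT06 and ZT10 in the light and ZT14, ZT18 and ZT22 in the dark, with 4 mice per genotype and time except 3 Bmal1-/- mice at ZT22. The labels do not say whether the deletion is limited to some cells, and liver is a mixture of cell types. Below, a series stands for the mice of 1 genotype with 1 replicate number, each time a different mouse, with wild-type series 11, 12, 26 and 27 and Bmal1-/- series 5, 8, 9 and 10.

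Each of the 47 libraries has 1 profile of the authors' MNase signal, averaged over the 583 peaks, with 300 values at steps of 10 bp across a 3000 bp window. A position within 150 bp of the middle rested on average on 3139 to 6596 fragments per library. The counting error of such an average position was 1.23% to 1.78%, which covers counting alone, and the lowest positions rested on fewer fragments. Depth relative to the shallowest library averaged 1.52 ± 0.299 for the 24 wild-type libraries (SD) and 1.36 ± 0.229 for the 23 Bmal1-/- libraries (SD), and its part in the results was not tested. The signal is an average over peaks, so single promoters have positions here but no MNase values.

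TSS peaks stood throughout the list. With the list cut into 10 parts in its own order, they made up 23.3% of the first (75 peaks), 14.9% to 20.2% of the middle ones and 15.4% of the last (49 peaks). They lay on 20 chromosomes, most often on chromosome 11 (64 peaks) and chromosome 7 (51 peaks), and 2 were on the X. Their mean width was 318.2 bp ± 92.66 (SD, 583 peaks), beside 321.43 bp ± 90.85 for the other 2634 peaks. The median width of TSS peaks was 400 bp in the first of the 10 parts and 230 bp in the last. The windows of 19.4% of TSS peaks overlapped the window of another peak, and 71 overlapped that of another TSS peak, so these members share signal. The share of overlapping windows among other peaks was 19.6%.

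The first TSS peak was also the first of the whole list and the widest of the class, at chr7:52960041-52960760 (mm9, 720 bp). The next in list order were chr3:95686051-95686501, chr5:149806621-149807270, chr11:98636531-98636831 and chr1:93355801-93356370, at places 4, 6, 7 and 13 of the list. The last was chr2:121238931-121239061, the narrowest, at place 3214. These are mm9 positions, and the class is the only annotation the list gives. Gene names and sequences of build mm9 were not used here.

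The first question was what the chromatin of these sites looks like with and without BMAL1. Nucleosome signal fell to less than 60% of its surroundings at its lowest point near the middle of these sites in most mice of both genotypes. For each library, signal was set in percent of the flank, the mean beyond 1000 bp on both sides. The mean wild-type profile was lowest 15 bp left of the middle, at 46.4% of the flank, and the mean Bmal1-/- profile was lowest 5 bp left of it, at 50.8%. Signal lay under the midpoint between this lowest value and the flank over 270 bp in both mean profiles, a little less than the mean width of the ChIP-seq peaks. In single mice the lowest value ranged from 37.3% to 53.7% in wild type (median 46.6%) and from 40.1% to 60.3% in Bmal1-/- (median 50.3%), and the genotypes overlapped over most of this range.

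**Figure D1:**
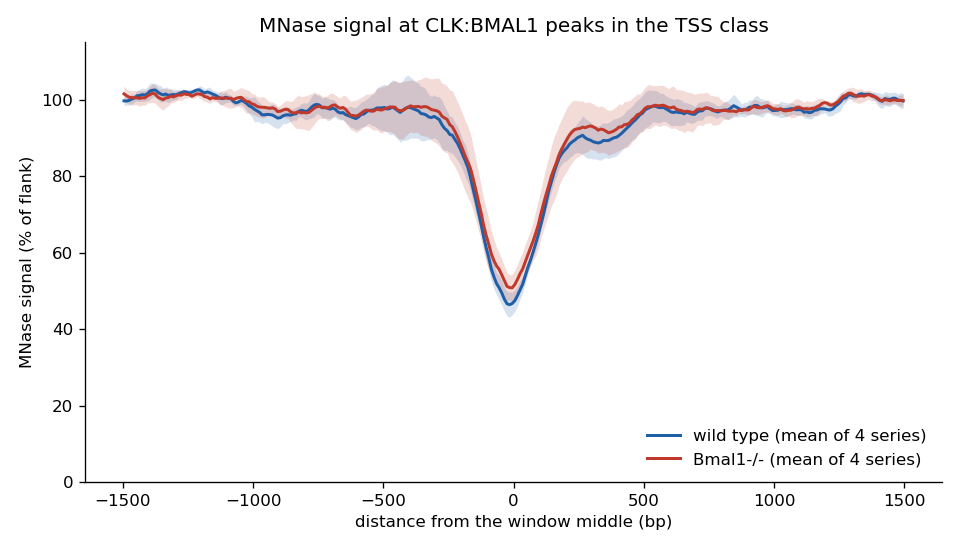
Mean MNase signal in percent of the flank against distance from the window middle, for wild type and Bmal1-/-, with bands of 1 SD over the 4 series of each genotype. Both profiles dip to 46.4% and 50.8% near the middle, and the bands overlap along nearly the whole window.

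Relative central signal, the mean within 150 bp of the middle in percent of the flank, was used to compare mice. Series means were 62.04%, 58.8%, 57.1% and 57.2% in wild-type series 11, 12, 26 and 27. In Bmal1-/- series 5, 8, 9 and 10 they were 62.3%, 54.8%, 67.3% and 64.8%. Bmal1-/- series 8 lay below every wild-type series, and the other 3 Bmal1-/- series lay above every one of them. Wild-type series averaged 58.8% ± 2.31 and Bmal1-/- series 62.3% ± 5.41 (SD, n = 4 each). The 3.47 percentage points between them did not exceed the spread between series (exact two-sided permutation p = 0.257, adjusted p = 0.771 over 6 tests of genotype). Without series 8 the difference was 5.97 (exact permutation p = 0.0571), and without series 9 it was 1.798 (p = 0.486). On the scale of the authors, the wild-type series had a central signal of 3.82 ± 0.201 over a flank of 6.49 ± 0.113 (SD, n = 4). For the Bmal1-/- series these were 3.94 ± 0.413 and 6.32 ± 0.249 (SD, n = 4).

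Series 8 also differed from the others beside the trough. Within 150 to 450 bp of the middle, averaged over both sides, it had 82.6% of its flank, where the other 3 Bmal1-/- series had 92.2% (series 5), 99.5% (series 9) and 96.2% (series 10). Wild-type series spread less there (SD 4.95, beside 7.29 in Bmal1-/-, n = 4 each), at 97.8% (series 11), 90.5% (series 12), 87.7% (series 26) and 86.9% (series 27). This region next to the trough thus varied between series of 1 genotype by about 10 points or more, which is more than the genotypes differed. At the peaks outside TSS, the same region ran from 90.7% to 95.4% in wild type and from 93.8% to 100.1% in Bmal1-/- series, and series 8 (94.3%) lay among the rest.

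Outside the trough, the highest single value from 150 to 1000 bp on each side was taken in each library. These values lay at scattered places, with series means of the offset from -400 to -970 bp on the left and from 647 to 845 bp on the right, so they are not a measure of the nucleosomes next to the trough. The mean wild-type profile stayed under its flank over this range, with 98.8% on the left and 98.5% on the right at its highest. On the left, wild-type series reached 104.6% ± 4.11 of the flank and Bmal1-/- series 104.5% ± 3.61 (SD, n = 4 each; difference -0.082, exact permutation p = 1). On the right they reached 102.997% ± 2.71 and 104.5% ± 3.97 (difference 1.53, exact permutation p = 0.543). The left value was highest in wild-type series 11 (110.1%) and lowest in Bmal1-/- series 8 (99.4%), so each genotype held one end of the range. The trough was 270.8 bp ± 15.7 wide in wild-type series and 277.9 bp ± 49.4 in Bmal1-/- series (SD, n = 4 each; exact permutation, adjusted p = 0.995), and ran from 233.3 bp in series 9 to 340.0 bp in series 8. Adjusted p was 0.815 or more for these 3 measures.

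The profile was not symmetric. On the left side, 150 to 450 bp from the middle, signal was 93.3% ± 6.54 of the flank, and on the right side it was 90.1% ± 5.26 (SD, n = 8 series). Right minus left was -3.21 percentage points ± 1.96 (SD, n = 8 series; exact two-sided sign-flip p = 0.00781, the smallest possible, adjusted p = 0.0156 over 8 tests). It was -5.86 in wild-type series 11 and -5.01 in Bmal1-/- series 5, and the sides were level in Bmal1-/- series 8 (-0.00155). Right was set against left only once the values were known. The flank was not level either. At 1205 bp from the middle the mean wild-type profile had 102.6% left and 97.4% right, and the Bmal1-/- one 101.5% and 99.1%. At 905 bp the right was higher, with 95.2% left and 98.1% right in wild type and 96.9% and 97.4% in Bmal1-/-. How far the difference beside the trough is part of an unevenness of the whole window was not tested. At all other peaks right minus left was 0.579 ± 0.666 (SD, n = 8 series). TSS minus other peaks, in this measure, was -3.79 in the mean of the 8 series (exact sign-flip p = 0.00781, adjusted p = 0.0156). In the mean profiles of the 200 peaks named as the top of the TSS set, after a running mean over 70 bp, this side had a low at 335 bp (84.9%) and then a high at 535 bp (102.5%) in wild type. In Bmal1-/- the low lay at 355 bp (88.8%) and the high again at 535 bp (103.8%). Nothing in the labels or files says whether windows were turned to the direction of the gene.

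**Figure D2:**
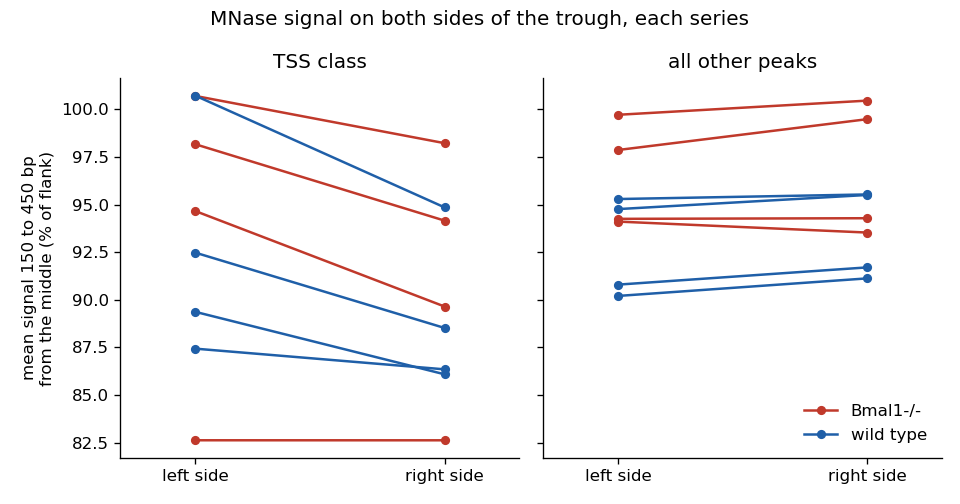
Mean MNase signal 150 to 450 bp to the left and to the right of the middle, in percent of the flank, with 1 line per series, for the TSS class and for all other peaks. At TSS peaks 7 of the 8 lines fall from left to right and the lowest, Bmal1-/- series 8, is level, while at other peaks the lines run nearly flat. The flank is the mean of both sides, and at TSS peaks it was itself uneven between them.

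The second question was whether TSS peaks respond to the loss of BMAL1 as the rest of the sites do. The trough was deeper at TSS peaks than at the other 2633 peaks of the signal table in all 8 series, with TSS minus other at -15.9 percentage points ± 3.94 (SD, n = 8 series; exact sign-flip p = 0.00781, adjusted p = 0.0156). At the other peaks, wild-type series had 71.7% ± 0.930 and Bmal1-/- series 81.2% ± 3.55 (SD, n = 4 each), so Bmal1-/- was higher by 9.57 there and by 3.47 at TSS peaks. TSS minus other was -12.9 ± 2.66 for wild-type series and -18.97 ± 2.09 for Bmal1-/- series (SD, n = 4 each). The genotype difference at TSS peaks minus that at other peaks was -6.10 percentage points (exact two-sided permutation p = 0.0286, the smallest possible, adjusted p = 0.0458). The contrast was -5.06 without Bmal1-/- series 8 (exact permutation p = 0.0571) and -4.96 with the centre taken within 250 bp (exact permutation p = 0.171). Along the window, the mean genotype difference at TSS peaks was greatest 55 bp left of the middle, where wild type had 50.8% and Bmal1-/- 55.6%. At other peaks it was greatest 25 bp left of the middle, at 65.5% and 77.5%.

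**Figure D3:**
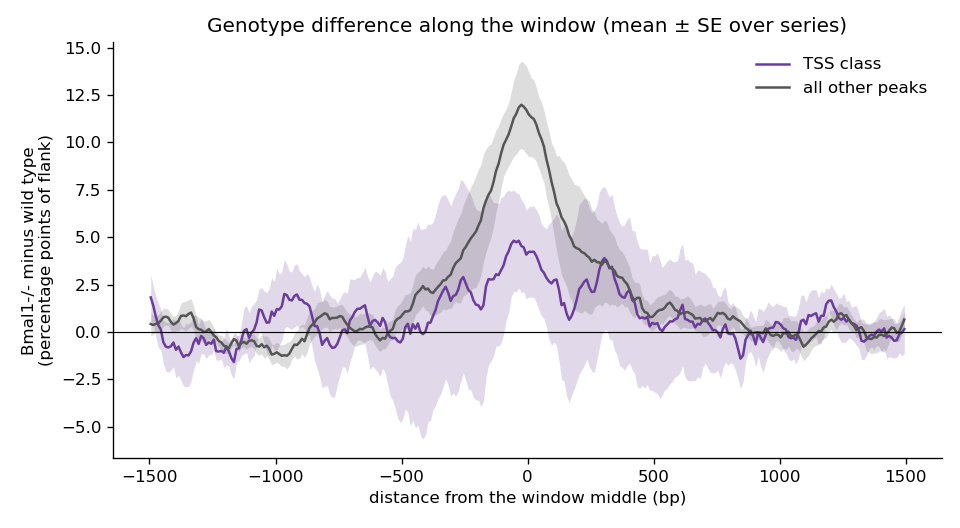
Bmal1-/- minus wild type in percentage points of the flank against distance from the window middle, as the mean over series with a band of 1 SE, for the TSS class and for all other peaks. The curve of other peaks rises to 12.0 points near the middle and that of TSS peaks to 4.81 points.

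Position by position, limma was fitted to log2 of the relative signal over 1500 rows, the 300 positions of 5 separate genomic classes, with mice as units. Over all classes 13.9% of rows were higher and 0.0667% lower in Bmal1-/- at adjusted p under 0.05. At TSS peaks the called positions covered 110 bp, from 65 bp left to 35 bp right of the middle, all higher in Bmal1-/-, which is 3.67% of the TSS window and less than the share over all rows. At intron peaks the same fit called 580 bp and at intergenic peaks beyond 10 kb 650 bp. At intergenic peaks within 10 kb it called 390 bp, and at other gene body peaks 350 bp higher and 10 bp lower. The greatest change at a TSS position was 0.14 ± 0.039 on the log2 scale (SE, limma, adjusted p = 0.0078), 35 bp left of the middle. Neighbouring positions share fragments, and with the means of the 8 series as units no position passed (limma, 0 bp; 20 bp before adjustment at 0.05). With mice as units, the fit also called 0 bp without wild-type series 26 or 27 or Bmal1-/- series 9, and 570 bp without series 8. Without wild-type series 11 or 12 or Bmal1-/- series 5 or 10 it called 170, 70, 40 and 40 bp.

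The third question was how the trough moves over the day. In wild type, the mean central signal at TSS peaks was lower in the light than in the dark at an unadjusted p alone, and in 3 of 4 series the ZT10 mouse had the lowest value. At ZT02 the wild-type mice of series 11, 12, 26 and 27 had 66.4%, 60.1%, 56.9% and 55.1%. At ZT06 they had 62.3%, 55.9%, 53.8% and 55.2%. At ZT10 they had 59.3%, 56.7%, 51.9% and 53.1%, the lowest mean of the 6 times at 55.3% ± 3.38 (SD, n = 4). The light times were spread by series, with series 11 the highest at each of them. In the dark the wild-type mice lay close together, with 60.9%, 59.7%, 62.4% and 58.5% at ZT14. At ZT18 they had 60.3%, 61.3%, 60.2% and 58.7%, and at ZT22 62.9%, 59.3%, 57.5% and 62.3%. Every dark wild-type mouse thus fell between 57.5% and 62.9%, while the light mice ran from 51.9% to 66.4%.

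The Bmal1-/- mice had a larger SD than wild type at every time except ZT10. Series 5, 8, 9 and 10 had 64.5%, 54.9%, 74.4% and 64.9% at ZT02. At ZT06 they had 59.8%, 53.8%, 73.1% and 70.3%, and at ZT10 59.5%, 55.3%, 62.7% and 57.3%. At ZT10 the 4 mice were closest together (SD 3.16, n = 4), and all had less than 63% of the flank. At ZT14 they had 60.7%, 59.3%, 71.6% and 67.6%, and at ZT18 59.8%, 50.4%, 58.5% and 69.1%. At ZT22 series 5, 9 and 10 had 69.3%, 63.6% and 59.3%. Series 8 was the lowest Bmal1-/- mouse at each of the 5 times at which it was measured, and series 9 was the highest at ZT02, ZT06, ZT10 and ZT14.

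**Figure D4:**
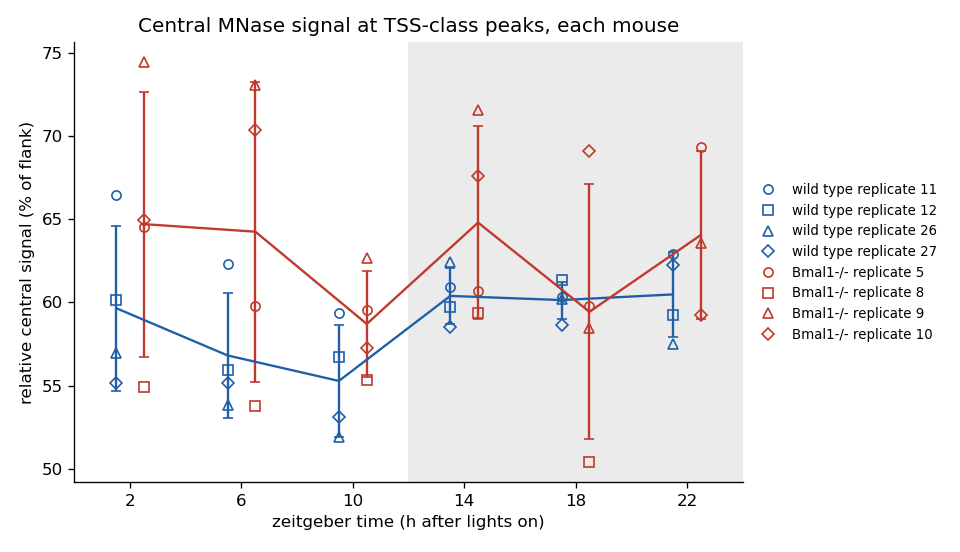
Relative central signal at TSS peaks in percent of the flank against zeitgeber time, with 1 marker per mouse by series and lines and bars for the mean and SD of each group; the dark phase is shaded and the axis does not start at 0. Wild-type mice gather between 57.5% and 62.9% in the dark and spread from 51.9% to 66.4% in the light, and Bmal1-/- mice overlap them at every time.

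The genotypes overlapped at each time, and no time passed the test. Bmal1-/- minus wild type was 5.04 (ZT02), 7.43 (ZT06), 3.42 (ZT10), 4.402 (ZT14), -0.703 (ZT18) and 3.56 (ZT22) percentage points. Exact permutation p was 0.371, 0.257, 0.171, 0.286, 0.257 and 0.714 for ZT02, ZT06, ZT10, ZT14, ZT22 and ZT18, and adjusted p was 0.429 to 0.714 over the 6 times. At ZT18 the sign turned to 2.30 without Bmal1-/- series 8 (exact permutation p = 0.686).

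Light minus dark was -3.08 percentage points in wild type, from 57.3% ± 4.16 in the light to 60.3% ± 1.698 in the dark (SD, n = 12 mice each; permutation p = 0.0262, adjusted p = 0.0611 over 7 tests). It was negative in 3 of 4 series, at -2.51, -5.81 and -5.32 in series 12, 26 and 27, and 1.32 in series 11. The unadjusted test was not passed without series 12, 26 or 27 (-3.27, -2.17 and -2.34, permutation p = 0.073, 0.164 and 0.157) or with the centre within 250 bp (-1.84, p = 0.229). A 24 h cosine had an amplitude of 2.46 ± 0.905 percentage points with its lowest point at ZT 8.10 ± 1.41 h (SE, n = 24 mice; permutation p = 0.042, adjusted p = 0.084 over 2 genotypes). The 12 Bmal1-/- mice of the light had 62.6% ± 7.09 and the 11 of the dark 62.6% ± 6.27 (SD), with light minus dark at -0.091 (permutation p = 0.974). The Bmal1-/- amplitude was 1.64 ± 1.98 (SE, n = 23 mice; permutation p = 0.712). Light minus dark, averaged over series, was higher in Bmal1-/- by 3.64 (exact permutation p = 0.2). Its spread between series was 3.27 and 3.38 (SD, n = 4 each in wild type and Bmal1-/-).

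Light minus dark at TSS peaks was set against that at the other peaks of the same wild-type libraries, which was -4.97 percentage points. TSS peaks changed less by 1.88, short of the threshold (permutation p = 0.172, adjusted p = 0.301). By position, limma called 0 bp of the TSS profile between light and dark in wild type, in Bmal1-/- and for their difference (180, 20 and 60 bp before adjustment at 0.05). Over all 5 classes 0% of rows were called in these 3 comparisons.

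The last question was whether the upper part of the TSS set differs from the rest. The signal table gives a set of 200 TSS peaks named as the top, and the profile of the remaining 383 was obtained by subtraction of the 200 from the 583, weighted by the number of peaks. The labels and files do not name the measure that ranked the top set. In list order, the TSS peak number 200 stood at place 979 of the list, and the first 200 TSS peaks had a median width of 355.5 bp beside 280 bp for the later ones. The top peaks had a slightly shallower trough than the remaining ones in 8 of 8 series, by 1.94 percentage points ± 1.43 (SD, n = 8 series; exact sign-flip p = 0.00781, adjusted p = 0.0156). Wild-type series gave 0.975 ± 0.838 and Bmal1-/- series 2.90 ± 1.26 (SD, n = 4 each), and the parts did not differ in their genotype difference by the test (1.93, exact permutation p = 0.0571). In wild-type series 11 the parts were nearly level, at 62.07% for the top 200 and 62.06% for the rest. With the centre within 250 bp the top peaks were higher by 1.13 (exact sign-flip p = 0.0547). The order turned in a smaller set named as the top 25% of TSS peaks, which had a deeper trough than the remaining 383 in all 4 wild-type series and in Bmal1-/- series 10. Wild-type series 11, 12, 26 and 27 had 59.2%, 56.8%, 54.9% and 54.8% at the top 25%, beside 62.1%, 58.6%, 56.7% and 56.5% at the remaining 383. Bmal1-/- series 5, 8, 9 and 10 had 63.7%, 54.7%, 68.3% and 63.5%, beside 60.9%, 54.1%, 65.9% and 64.2%. The size of this set and its place were assumed, as 25% of the 583 TSS peaks and all of them among the top 200. That assumption leaves 54 of the top 200 outside it, with values by subtraction only. If it holds, the shallower trough of the top 200 as a whole lay in wild type with these 54 peaks. This comparison was made after the values were seen, with no test.

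The genotype difference was 4.72 percentage points at the top 200, from 59.4% ± 1.83 in wild type to 64.2% ± 5.83 in Bmal1-/- (SD, n = 4 series each; exact permutation p = 0.171, adjusted p = 0.771). Series means there were 62.1%, 59.3%, 57.96% and 58.5% in wild-type series 11, 12, 26 and 27, and 64.8%, 56.1%, 69.97% and 65.8% in Bmal1-/- series 5, 8, 9 and 10. Series 8 was again the only Bmal1-/- series below wild type, and without it the difference was 7.41 (exact permutation p = 0.0286). Over the 8 left-out series the difference ran from 2.79 to 7.41, with exact permutation p from 0.0286 to 0.343. At the remaining 383 peaks the difference was 2.80, from 58.5% ± 2.58 to 61.3% ± 5.20 (SD, n = 4 series each; exact permutation p = 0.429, adjusted p = 0.815). The top 25% had 56.4% ± 2.07 in wild-type series and 62.6% ± 5.69 in Bmal1-/- series (SD, n = 4 each). The 54 peaks of the top 200 outside this set rest on the size and place assumed for it above. By subtraction they came to 69.01% ± 1.77 in wild-type series and 69.2% ± 6.57 in Bmal1-/- series (SD, n = 4 each).

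The change over the day in wild type was larger in the top part than in the remaining 383 peaks. Light minus dark in wild type was -5.53 percentage points at the top 200, from 56.7% ± 4.03 to 62.2% ± 2.26 (SD, n = 12 mice each; permutation p = 0.00053, adjusted p = 0.00371 over 7 tests), and negative in 4 of 4 series at -0.814, -6.39, -9.24 and -5.67 in series 11, 12, 26 and 27. At the remaining 383 peaks it was -1.78, from 57.6% ± 4.80 to 59.4% ± 1.86 (SD, n = 12 mice each; permutation p = 0.251, adjusted p = 0.351), with 2.54 in series 11 and -0.465, -4.03 and -5.15 in series 12, 26 and 27. Without series 11 the remaining peaks gave -3.21 (permutation p = 0.00828). The peaks outside TSS had -4.97 in the same wild-type mice, close to the value of the top 200, and the top 200 were not tested against them. The difference between the parts was -3.75 percentage points (permutation p = 0.00593, adjusted p = 0.0208), in a test chosen after the parts had been seen. It was -3.03 without series 12 (permutation p = 0.0535), and a centre of 250 bp to each side gave -2.89 (p = 0.0664).

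Among wild-type mice, the top 200 peaks had 58.5% ± 3.30 at ZT02, 55.1% ± 5.43 at ZT06 and 56.5% ± 3.38 at ZT10 (SD, n = 4 each). In the dark they had 63.2% ± 1.69 at ZT14, 61.8% ± 2.83 at ZT18 and 61.6% ± 2.40 at ZT22. The group means of the light times all lay below those of the dark times. The fitted 24 h cosine had an amplitude of 3.88 ± 0.971 percentage points with the lowest point at ZT 6.11 ± 0.957 h (SE, n = 24 mice, permutation p = 0.00291, not adjusted). The remaining 383 peaks had 60.3% ± 6.14, 57.7% ± 3.57 and 54.7% ± 3.56 at the light times and 58.9% ± 1.92, 59.3% ± 0.638 and 59.9% ± 2.82 at the dark times, in order of time (SD, n = 4 each). Their amplitude was 2.23 ± 0.998 with the lowest point at ZT 9.93 ± 1.71 h (SE, n = 24 mice), and it did not pass the test (permutation p = 0.101, not adjusted). In the remaining peaks ZT06 and ZT10 thus had group means under all dark means, and ZT02 lay above them.

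**Figure D5:**
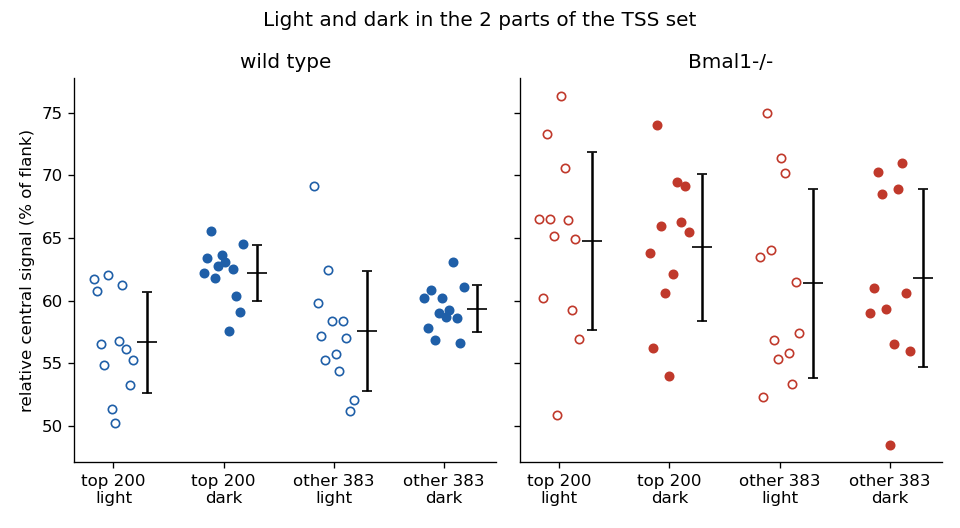
Relative central signal in percent of the flank of each mouse in the light (open) and the dark (filled) at the top 200 TSS peaks and the other 383, for wild type and Bmal1-/-, with mean and SD; the axis does not start at 0. In wild type the top 200 have means of 56.7% in the light and 62.2% in the dark, and in Bmal1-/- light and dark mice overlap.

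In Bmal1-/- neither part changed between light and dark beyond the spread between mice. The top 200 peaks had 64.8% ± 7.10 in the light and 64.3% ± 5.86 in the dark, and the remaining 383 had 61.4% ± 7.54 and 61.8% ± 7.11 (SD, n = 12 and 11 mice). The parts differed in light minus dark by 0.885 (permutation p = 0.657). Between genotypes, light minus dark at the top 200 peaks differed by 6.78 percentage points over series, short of the threshold (exact permutation p = 0.0571, adjusted p = 0.0653). Without wild-type series 11 the difference was 8.35 (exact permutation p = 0.0286), and over the 8 left-out series p ran from 0.0286 to 0.0857. Light minus dark at the top 200 in single Bmal1-/- series was 2.50, 1.68, 3.10 and -2.28 in series 5, 8, 9 and 10, and only that of series 10 lay among the wild-type values.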

How the data were processed

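Signal is a scaled coverage that the authors deposited as averages over named peak sets; CASAVA 1.7, Bowtie and build mm9 are named in the submitters' processing notes, while the Bowtie version, fragment length, duplicate handling, peak caller and scaling target are named in no source used here. Per the labels, nuclei were crosslinked with 1% formaldehyde for 10 min and digested for 15 min with 30000 gel units of MNase, and DNA of about 150 nt was sequenced. The signal table covers 3216 of the 3217 listed peaks.

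Columns were taken as evenly spaced over the window. Relative signal, series means and tests were computed with Python 3.11.15 and NumPy 2.4.6. Genotypes were compared over series by exact two-sided permutation (70 assignments, smallest p 0.0286). Light and dark were compared over mice with 100000 resamples, and differences within libraries by sign flips over 8 series. Position tests used limma 3.58.1 in R 4.3.3 (12 groups in 1 fit, eBayes trend, threshold 0.05). P-values were adjusted by Benjamini-Hochberg. Tests were tried on simulated data. Depth was read from the step between signal values in the smallest peak sets, with 100% of values whole to within 0.1 of a step. Each library is 1 mouse per the labels, but mice of a series may share handling.

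Peaks named in the text are the first 5 TSS peaks of the list, the last and the widest. The class, the parts and the lists were chosen with earlier results of these data known. The tests of right against left, of light and dark between the parts, and between genotypes at the top 200 were added after the data were seen. The reference genome in hand is GRCm38, and mm9 positions were not converted to it.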

Additional observations from a re-analysis of the deposited data

Results flagged for a closer look

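Groups of mice at 1 time and groups of series were searched for a value standing off from its group, in the measures of TSS peaks above. This held for 1 of 49 groups, where chance gives about 5%. At ZT18 in wild type, the mouse of series 27 had 57.6% relative central signal at the top 200 TSS peaks, and the nearest of the other 3 mice had 62.7%.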

How the results depend on the processing

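Of 382 alternative values for 33 results, 330 kept their direction and their side of the threshold (or, for called widths, stayed within 1.5 times). With the centre within 250 bp, weaker values were 1.13 for top 200 minus the rest, -4.96 for TSS minus other peaks between genotypes, -1.84 for light minus dark in wild type, 1.696 for its amplitude and -2.89 for light minus dark between the parts, and the Bmal1-/- light minus dark values turned to 1.14 (all TSS peaks) and -0.141 (between the parts). With the centre within 50 bp the amplitude was 2.55 (permutation p = 0.0755), and light minus dark at the top 200 differed between genotypes by 8.71 (exact permutation p = 0.0286). On the scale of the authors these were 0.171 (p = 0.0725) and 0.479 signal units (exact permutation p = 0.0286), the highest right value turned to -0.076 and Bmal1-/- light minus dark to 0.023. Without ZT22 in any series, an alternative added after seeing the data, the latter was 0.436.

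Left-out series moved values as follows. Genotype differences ran from 2.79 to 7.41 at the top 200, -3.92 to 2.30 at ZT18, -1.29 to 1.76 at the highest left value (it turned without series 11, 12 or 8) and -13.6 to 21.9 bp in width (it turned without series 8). TSS minus other peaks between genotypes ran from -6.93 to -5.06. Light minus dark in wild type ran from -4.55 to -2.17 at all TSS peaks, -3.21 to -0.653 at the remaining 383 and -4.83 to -3.03 between the parts, and the amplitude from 2.07 to 3.24. In Bmal1-/- it ran from -1.88 to 0.802, and between the parts from -1.21 to 2.56. Between genotypes at the top 200 it ran from 5.54 to 8.35.

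The 110 bp called between genotypes became 60 bp with libraries centred on their medians, and 0 bp on the scale of the authors with the pseudocount of 5.54 or 10 times it, with a random series effect, with series means, with TSS rows alone, and without the 25% of rows of lowest signal, which holds the trough. Left-out series gave 0 to 570 bp, and 0 to 10 bp for light against dark in wild type. The cause of these changes was not tested unless given.

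Genotypes share no replicate numbers, so no block was possible between them. Within a genotype, same-numbered libraries deviated together (r over 0.1 over TSS positions) in 10 of 10 pairs of series 8 and 14 of 15 of series 9 and of 11, but in 3 of 15 of series 12 and 7 of 15 of series 10 (lowest r -0.461). By mean r, 31 of 47 libraries were nearest to their own of the 4 series, a hint from the data, and the number was not taken as a pairing; light and dark tests permuted mice across series. With the replicate block, light minus dark in wild type had permutation p = 0.00893 at all TSS peaks and 2e-05 at the top 200, 10 of 12 results kept their call, Bmal1-/- light minus dark turned to 0.556, and light against dark in wild type covered 10 bp. Depth limits an average central position to a counting error of 1.23% to 1.78%.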
